A study of Mus musculus with 10 samples.

Results

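Lcn2, C3, Steap4, Serpina3n, Ptx3, Cxcl1 and Ccl2 are 7 mouse genes whose products are secreted or membrane proteins of the acute-phase and chemokine responses. They were found by symbol among the 9865 lines of the expression table in which symbols stand beside their own values, out of 20494 lines in all. All 7 were found there, and they were picked with their levels in these libraries known. Their levels and differences are therefore a description, and where the calls of the fit for them are counted, the count is not a test. Other genes of the same pathways, listed by function, were tested, although these lists too were drawn up with earlier results of these data known.

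A mouse embryonic stem cell line of strain C57BL6X129S6F1 was cultured in 5 conditions, and its RNA was sequenced in 2 libraries per condition, 10 in all. Nothing states that the libraries of a condition came from separate cultures, so the spread between them, and the p-values built on it, may be technical. SL is KO-DMEM with 15% FBS. All conditions contained 1000 IU mLIF, the cytokine that holds mouse embryonic stem cells undifferentiated. The other 4 used the serum-free medium N2B27 with 3 µM Chir99021, which inhibits the kinase GSK3. 2iL and 2iL-F also contained 1 µM PD0325901, a MEK inhibitor, A2iL contained 1.5 µM CGP77675, a Src family kinase inhibitor, and LCDM contained 2 µM each of the compounds written Dim and Mih. Feeder cells were present in SL, 2iL, A2iL and LCDM and absent from 2iL-F, per the labels, which do not say what cells the feeders were.

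The acute-phase response is the rise of a set of secreted defence and transport proteins during inflammation, driven in liver and in many connective tissue cells by cytokines such as IL-1, IL-6 and TNF through the transcription factors NF-kB, STAT3 and C/EBP. Chemokines are small secreted proteins that attract leukocytes through receptors on those cells, and fibroblasts, the cells most often used as feeders, are a known source of them. Lipocalin 2, pentraxin 3, complement C3 and the chemokines Ccl2 and Cxcl1 belong to this stromal response.

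The feeder labels did not match the levels of fibroblast transcripts, and this bears on every value that follows. Col1a1, a chain of type I collagen, had 366 and 393 TPM in the 2 SL libraries, 407 and 381 in A2iL and 108 and 105 in LCDM. TPM is an abundance scaled to gene length and to the library total. Where the label is 2iL, a culture with feeders, Col1a1 had 0.200 and 0.264 TPM, and where it is 2iL-F, a culture without them, it had 1058 and 974. The names 2iL and 2iL-F are used below as labels of libraries, and no direction between them is tied to the presence of feeders. Of 43 fibroblast markers, 38 stood in the lines that can be named, and 7 of these were listed at 0 in both 2iL libraries. Embryonic stem cell transcripts were abundant in all 10 libraries, where Pou5f1, the pluripotency factor Oct4, had 991 to 1367 TPM. In these bulk libraries, fewer cells of a type and less RNA per cell cannot be told apart.

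Promoter sequences of 6 of the 7 genes were taken from RefSeq (GRCm38.p6, the assembly also called mm10) as the 250 bases before the annotated start site. The 4 shown are those of the 3 genes that exceeded 10 TPM in A2iL and in no other condition (Lcn2, C3 and Steap4) and that of a chemokine, Cxcl1. They are written 5′ to 3′ on the gene's strand, with matches to inflammatory transcription factor motifs and the TATA box in capitals. Lcn2 lies on the minus strand at chr2:32387740-32387989, C3 on the minus strand at chr17:57228137-57228386, Steap4 on the plus strand at chr5:7960222-7960471 and Cxcl1 on the plus strand at chr5:90890995-90891244.
Lcn2: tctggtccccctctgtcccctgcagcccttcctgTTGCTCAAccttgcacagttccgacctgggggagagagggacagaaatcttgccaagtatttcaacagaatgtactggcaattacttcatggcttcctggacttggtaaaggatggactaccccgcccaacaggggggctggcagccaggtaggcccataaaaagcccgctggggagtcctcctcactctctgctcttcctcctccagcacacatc
C3: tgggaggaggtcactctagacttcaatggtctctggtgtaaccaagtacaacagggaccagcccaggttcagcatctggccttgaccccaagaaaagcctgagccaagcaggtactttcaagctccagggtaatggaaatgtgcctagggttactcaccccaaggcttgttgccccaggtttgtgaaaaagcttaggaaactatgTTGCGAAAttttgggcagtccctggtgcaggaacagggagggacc
Steap4: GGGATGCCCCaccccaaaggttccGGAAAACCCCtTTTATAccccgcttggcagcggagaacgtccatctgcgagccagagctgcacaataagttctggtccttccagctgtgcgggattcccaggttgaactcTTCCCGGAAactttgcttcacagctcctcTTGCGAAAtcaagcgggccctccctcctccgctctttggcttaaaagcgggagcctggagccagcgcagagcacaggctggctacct
Cxcl1: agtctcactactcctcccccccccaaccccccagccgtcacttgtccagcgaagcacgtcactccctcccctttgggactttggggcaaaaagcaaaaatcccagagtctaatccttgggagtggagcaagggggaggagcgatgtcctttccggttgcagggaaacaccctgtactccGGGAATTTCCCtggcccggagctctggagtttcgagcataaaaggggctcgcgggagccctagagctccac

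The motifs were searched on both strands as letters. They were the kappaB site of NF-kB, TTGCNNAA for C/EBP, TTCNNNGAA for STAT factors, TGANTCA for AP-1 and TATAAA for the TATA box. C3 and Steap4 carry the same 8 bases, TTGCGAAA, as their C/EBP match, at -45 to -38 from the start site in C3 and at -87 to -80 in Steap4. In Lcn2 the C/EBP match is TTGCTCAA at -216 to -209, and in Ptx3 it is TTGTGCAA at -57 to -50, where the motif reads on the other strand. Cxcl1 holds a kappaB match on each strand that overlap in all but 1 base, GGGAATTTCC at -71 to -62 and GGAATTTCCC at -70 to -61. Steap4 holds 2 further kappaB matches, GGGATGCCCC at -250 to -241 and GGAAAACCCC at -226 to -217, where the motif reads on the other strand. It also holds a STAT match, TTCCCGGAA, at -116 to -108, and a TATA match, again on the other strand. Of the 6 promoters, 4 held a C/EBP match, 2 a kappaB match, 1 a STAT match, 1 a TATA match and 0 an AP-1 match. Over 32851 mouse promoters of the same length, the shares with a match were 9.6% for C/EBP, 3.9% for kappaB, 7% for STAT, 12.4% for TATA and 6.7% for AP-1. A match describes letters in this window and does not show a bound factor.

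Lcn2, C3 and Steap4 were each listed at more than 10 TPM in A2iL and below 4 TPM in every other library. Lcn2 encodes lipocalin 2, a secreted protein that withholds iron from bacteria by binding their siderophores. It had 11.8 TPM in both A2iL libraries, 0.511 and 0.666 in 2iL-F, 0.143 and 0.183 in SL, 0.0371 and 0 in LCDM and 0.0334 and 0 in 2iL. The A2iL libraries stood apart from all others, and the low LCDM and 2iL values overlapped. The A2iL mean was 72.4 times that of SL and 20.05 times that of 2iL-F, or 3.46 ± 0.10 and 3.01 ± 0.10 as differences of log2(TPM + 1) ± SE of the fit. Differences on this scale understate the change of low genes. Lcn2 passed the low-value filter of 1 TPM in at least 2 libraries only through A2iL, so its place among the genes compared rests on that condition.

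C3 encodes the central component of the complement cascade. Its level was 28.3 and 27.6 TPM in A2iL, 2.26 and 1.88 in 2iL-F, 0.461 and 0.299 in SL, 0.113 and 0.309 in LCDM and 0.0341 and 0 in 2iL. The order of conditions was that of Lcn2, with A2iL and 2iL-F clear of the rest and SL overlapping LCDM. The mean in A2iL was 73.6 times that in SL (4.39 ± 0.11) and 13.5 times that in 2iL-F (3.24 ± 0.11). Steap4, a metalloreductase of the cell membrane that reduces iron and copper and is induced by inflammatory cytokines in fat and connective tissue, had 37.9 and 37.1 TPM in A2iL, 3.74 and 3.57 in 2iL-F, 0.553 and 0.701 in SL and 0.216 and 0.280 in LCDM. It was listed at 0 in both 2iL libraries, and no condition overlapped its neighbour. Its A2iL mean was 59.8 times that of SL (4.57 ± 0.08) and 10.3 times that of 2iL-F (3.05 ± 0.08).

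Serpina3n and Ptx3 were highest in 2iL-F, not in A2iL. Serpina3n encodes a secreted inhibitor of serine proteases, the mouse relative of human alpha-1-antichymotrypsin. It had 49.3 and 48.5 TPM in 2iL-F, 15.5 and 15.2 in A2iL, 1.84 and 1.24 in LCDM, 0.181 and 0.280 in SL, and was listed at 0 in both 2iL libraries. Thus LCDM, the condition with the least Col1a1 apart from 2iL, stood above SL for this gene. The mean in 2iL-F was 212 times that in SL (5.34 ± 0.11), and that in A2iL was 66.6 times that in SL (3.73 ± 0.11) and 0.314 times that in 2iL-F (-1.61 ± 0.11). Serpina3n lies in a cluster of closely related Serpina3 genes on chromosome 12, so how reads were divided among these copies is uncertain.

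Ptx3 encodes pentraxin 3, a secreted pattern recognition protein that also takes part in matrix assembly. Its level was 135 and 130.4 TPM in 2iL-F, 102 and 106 in A2iL, 21.4 and 21.1 in SL, 5.55 and 5.07 in LCDM, and 0 and 0.0614 in 2iL. The last was the highest value of any of the 7 genes in a 2iL library. A2iL and 2iL-F did not overlap but lay close, at a ratio of 0.785 (-0.35 ± 0.06), while A2iL was 4.90 times SL (2.24 ± 0.06) and 2iL-F was 2.59 ± 0.06 above SL on the log2 scale.

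**Figure D1:**
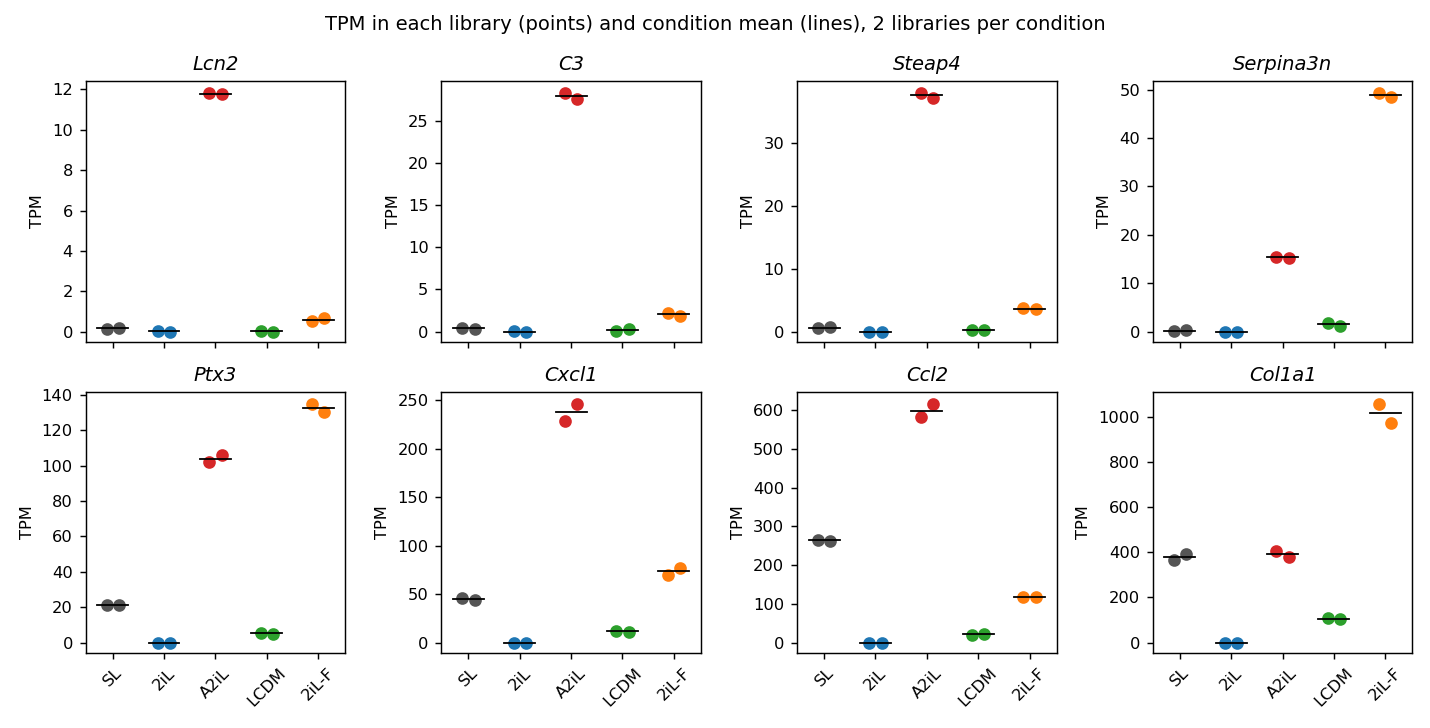
TPM on the vertical axis (linear, starting near 0, a scale of its own in each panel) of the 7 genes and Col1a1 in each of the 10 libraries, with points for libraries and lines for the means of 2. Lcn2, C3, Steap4, Cxcl1 and Ccl2 peak in A2iL, Serpina3n, Ptx3 and Col1a1 peak in 2iL-F, and all 8 genes lie at or near 0 in 2iL.

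The 2 chemokines were the most abundant of the 7 genes in SL. Cxcl1, which attracts neutrophils through the receptor Cxcr2, had 229 and 246 TPM in A2iL, 70.2 and 76.8 in 2iL-F, 46.2 and 44.1 in SL, 11.7 and 11.4 in LCDM, and was listed at 0 in both 2iL libraries. Ccl2, which attracts monocytes through Ccr2, had 581 and 616 TPM in A2iL, 265 and 262 in SL, 119 and 118 in 2iL-F and 20.9 and 21.8 in LCDM, with 0 in both 2iL libraries. No conditions overlapped for either gene. Ccl2 was the only one of the 7 that was lower in 2iL-F than in SL (-1.15 ± 0.05), whereas Cxcl1 was higher there (0.69 ± 0.06). The means in A2iL were 5.26 times SL for Cxcl1 (2.37 ± 0.06) and 2.27 times SL for Ccl2 (1.18 ± 0.05). Against 2iL-F they were 3.23 and 5.06 times as high.

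Across the 6 comparisons made, the direction of the 7 genes was uniform in some and mixed in others. The members were chosen on these contrasts, so the counts that follow describe the choice and are no test, and nothing is read from them against the backgrounds, which are the shares of all 14578 lines called in the same direction. With a call at an adjusted p below 0.05, A2iL exceeded SL for 7 of the 7, with a background of 21.9%. In 2iL, 6 were lower than in SL and 0 higher, with backgrounds of 40.9% and 36.7%, and the exception, Lcn2, differed by -0.19 ± 0.10. In LCDM, 4 were lower than in SL (Steap4, Ptx3, Ccl2 and Cxcl1, background 33.7%) and 1, Serpina3n, was higher (1.04 ± 0.11, background 32.2%). In 2iL-F, 6 were higher than in SL and 1 lower, with backgrounds of 28.1% and 37.3%. All 7 were higher in 2iL-F than in 2iL, with a background of 29.2%. A2iL was above 2iL-F for 5 and below it for 2, with backgrounds of 22.2% and 23.0%. The 4 comparisons with SL share the same SL libraries.

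Relative to Col1a1 in the same library, all 7 genes were higher in A2iL than in SL. Col1a1 itself overlapped between these conditions. The Lcn2 level was 2.90% and 3.09% of the Col1a1 level in the A2iL libraries and 0.0390% and 0.0466% in SL. For C3 these shares were 6.95% and 7.25% in A2iL against 0.126% and 0.0761% in SL. Serpina3n stood at a mean of 3.90% in A2iL and of 0.0604% in SL. The other 4 genes showed the same order, with mean shares in A2iL and SL of 9.53% and 0.165% for Steap4, 26.5% and 5.61% for Ptx3, 60.5% and 11.9% for Cxcl1 and 152% and 69.7% for Ccl2. Ccl2 was thus the only one of the 7 above Col1a1 itself, and only in A2iL.

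In 2iL-F, where Col1a1 was highest, the shares went both ways from SL. They were lower than in SL for Cxcl1, at 7.26%, and for Ccl2, at 11.7%. The mean shares of the other 5 were higher, at 13.1% for Ptx3, 4.82% for Serpina3n, 0.360% for Steap4, 0.204% for C3 and 0.0584% for Lcn2. In LCDM, Ptx3 at 4.98% and Cxcl1 at 10.8% lay near their SL shares, Ccl2 at 20.05% lay below, and Serpina3n at 1.44% lay above. The low shares of C3 and Lcn2 in LCDM rest on values below 0.4 TPM. No share is given for 2iL, where Col1a1 was below 0.3 TPM.

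**Figure D2:**
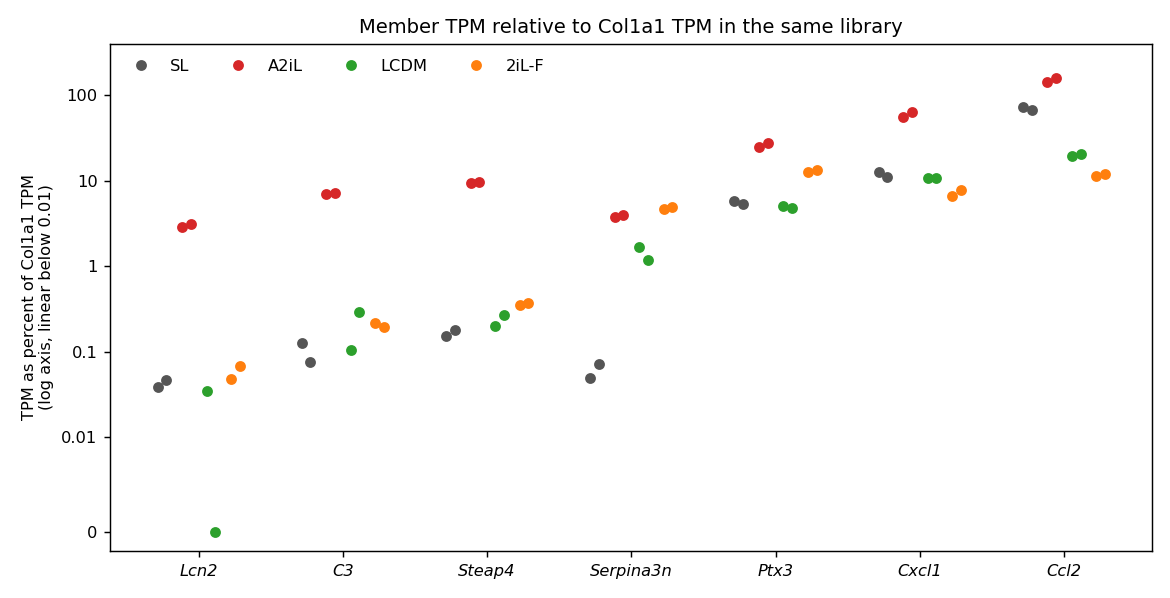
TPM of each gene as a percent of Col1a1 TPM in the same library (vertical axis, logarithmic above 0.01 and linear below it), with 1 point per library for SL, A2iL, LCDM and 2iL-F. The A2iL points are the highest for all genes but Serpina3n, where 2iL-F, at a mean of 4.82%, lies above A2iL, at 3.90%.

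The choice of fibroblast gene changed this comparison. With Col3a1, a chain of type III collagen that had 4.29 times the SL level in A2iL, the share of 6 of the 7 was higher in A2iL, and Ccl2 went the other way, at 482% against 911%. With Dcn, the matrix proteoglycan decorin, 4 of the 7 were higher. Dcn had 107 ± 3.23 TPM in A2iL against 6.56 ± 0.332 in SL (mean ± SD, n = 2), and the Dcn-based shares of Ptx3, Cxcl1 and Ccl2 were lower in A2iL than in SL. Lcn2, C3, Steap4 and Serpina3n were higher with each of these references.

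The fibroblast markers did not move as a block between SL and A2iL. Of the 38, 9 were higher and 20 lower in A2iL (limma, adjusted p below 0.05), a share of 76.3% beside 53.8% of all lines. Their median log2 difference was -0.28 beside -0.07 over all lines tested. Their A2iL to SL ratios of mean TPM ran from 0.0156, for the smooth muscle gene Cnn1, to 16.4, for Dcn, with a median of 0.825. Lcn2, C3, Steap4 and Serpina3n lay above this range, at 59.8 to 73.6, and Ptx3, Cxcl1 and Ccl2 lay within it. The summed TPM of the list was 6752 to 7074 in SL, 3977 to 4072 in A2iL, 5458 to 5692 in 2iL-F, 1524 to 1549 in LCDM and 1074 to 1139 in 2iL. A few genes weighed heavily in these sums. Most of the 2iL sum was Fn1, Sparc and Timp1, with means of 403, 441 and 126 TPM there. Acta2 and Tagln had 891 and 908 TPM in SL and 24.2 and 25.3 in A2iL. How far a different amount or state of fibroblast RNA contributes to the levels of the 7 genes was not tested.

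**Figure D3:**
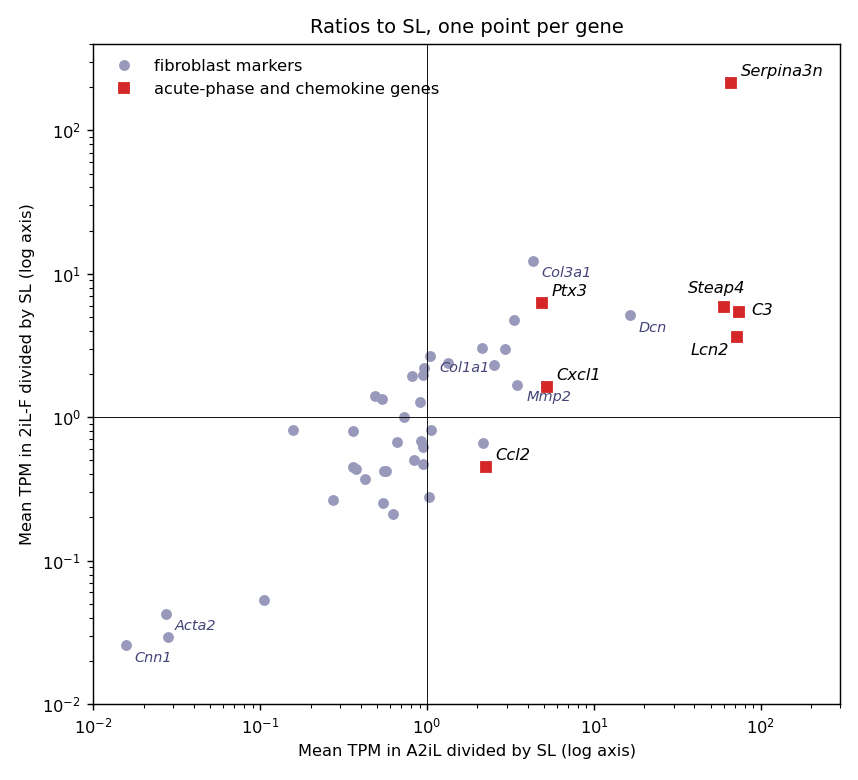
Ratio of mean TPM in A2iL to SL (horizontal, log axis) and in 2iL-F to SL (vertical, log axis) for the 7 genes (squares) and 38 fibroblast markers (circles), with lines at a ratio of 1. Serpina3n, Steap4, C3 and Lcn2 lie to the right of every fibroblast marker, including Dcn at 16.4, while Ptx3, Cxcl1 and Ccl2 lie among them, and the 2 axes share the SL libraries.

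Markers of other cell types varied between conditions. Of 14 macrophage and leukocyte markers in the named lines, 8 were below 1 TPM in every condition, and Ptprc, the pan-leukocyte gene CD45, did not exceed 0.102 TPM in any library. The summed level of that list was 37.2 to 43.3 TPM in SL, 89.1 in A2iL, 80.4 to 82.8 in LCDM, 93.0 to 96.3 in 2iL and 110 to 116 in 2iL-F. Most of the sum was Laptm5, a lysosomal gene of leukocytes, with 54.5 ± 0.629 TPM in A2iL, 11.9 ± 1.14 in SL and 50.5 ± 2.06 in 2iL, and Cd68, with 20.97 ± 0.138, 14.2 ± 2.89 and 37.2 ± 0.397 TPM. Adgre1, the macrophage gene F4/80, had 3.66 ± 0.166 TPM in A2iL, 2.33 ± 0.237 in SL, 0.544 ± 0.0681 in 2iL-F and 0.114 ± 0.00781 in LCDM, and 0 in both 2iL libraries. Csf1r had 5.59 TPM in A2iL and 6.12 in SL, and Tyrobp had 1.43 and 2.12, and neither passed between these conditions. Of the 6 markers of this list that were tested, 3 were higher in A2iL than in SL and 0 lower. That share of 50% stood beside 53.8% of all lines. Of 11 hepatocyte and yolk sac markers, 6 were below 1 TPM in every condition, and the summed level was 52.7 to 52.8 TPM in A2iL and 36.5 to 47.1 in SL, mostly Apoa2. Alb, albumin, had 1.60 ± 0.0606 TPM in A2iL and 0.121 ± 0.0549 in SL. Among 6 adipocyte markers, 5 were below 1 TPM in every condition, with sums of 2.01 to 2.26 TPM in A2iL and 1.80 to 1.82 in SL. Of 7 endothelial markers, 2 were below 1 TPM in every condition, and the summed level was 40.2 to 40.8 TPM in A2iL, 19.2 to 19.3 in SL, 67.0 to 69.2 in LCDM, 71.2 to 72.3 in 2iL-F and 105 to 113 in 2iL. Most of it was Pecam1, an adhesion molecule, with 24.3 ± 0.189 TPM in A2iL, 6.32 ± 0.0761 in SL and 71.9 ± 2.18 in 2iL. Of the 5 endothelial markers tested, 4 were higher in A2iL than in SL and 1 was lower. In that comparison 53.8% of all lines passed in either direction. What any of these cells contribute to the 7 genes was not tested.

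Over the 10 libraries, the 7 genes fell into levels that followed each other closely and levels that did not. On log2(TPM + 1), Pearson's r was 0.994 for C3 with Steap4, 0.987 for Lcn2 with C3 and 0.971 for Lcn2 with Steap4. Ccl2 and Cxcl1 had r of 0.978, Ptx3 and Cxcl1 0.956, and Lcn2 and Serpina3n 0.535. With Col1a1, r was 0.919 to 0.923 for Ptx3, Cxcl1 and Ccl2, 0.667 for Serpina3n, 0.527 for Steap4, 0.466 for C3 and 0.369 for Lcn2. These values describe 5 conditions with 2 libraries each, which share libraries and medium, and both genes being near 0 in 2iL adds to them.

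The genes with levels most like those of each member were sought among tested genes that can be named, with at least 5 TPM in the highest condition. Predicted genes, Rik clones, small RNAs, pseudogenes, and ribosomal protein and histone genes were left out. C3 was followed most closely by Cp (r = 0.9952), the copper-carrying ferroxidase ceruloplasmin, then Hp (0.9945), haptoglobin, and Steap4 (0.9945). For Lcn2 the nearest were C3, Cp, Ccl11, Hp and Steap4, and for Steap4 they were C3, Cp, Hp, Cd34 and Ctsl. Cp and Hp are classical acute-phase genes that were not among the 7. Lcn2, Hp and Ccl11 passed the low-value filter only through A2iL, so the r among them rest mainly on their A2iL values. The genes nearest to Serpina3n were others, Arid5b (0.9854), Oas2 (0.981), Col14a1 (0.9761), Trim8 and Dab2ip. Ptx3 was nearest to Il6st (0.9961), the shared receptor chain of the IL-6 family, and to Adamts1, Lama4, Efemp1 and Gpx3. Ccl2 was nearest to Serpine2 (0.9958) and to its chromosomal neighbour Ccl7 (0.9945), and Cxcl1 to Mgst1 (0.9973) and the matrix protease Mmp2 (0.9966). These r describe the same 10 libraries and 5 conditions.

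Outside the 7, the acute-phase proteins were higher in A2iL than in SL for 7 of the 8 tested, of 35 listed, and for 6 of 7 without Hp, which passed the low-value filter only through A2iL. Here and below, genes were tested with limma on log2(TPM + 1), p-values were adjusted by the Benjamini-Hochberg method over all 14578 lines, and in this comparison 53.8% of lines passed in either direction. Cp had 7.29 ± 0.0131 TPM in A2iL and 0.565 ± 0.0250 in SL, a difference of 2.41 ± 0.10 (adjusted p = 5.2e-07). Hp, which binds free haemoglobin, had 5.64 ± 0.732 TPM against 0.0777 ± 0.110, given here without a test because of that filter. The metal-binding metallothioneins Mt1 and Mt2 rose by 1.37 ± 0.04 and 1.12 ± 0.05 from far higher levels, Mt2 reaching 2634 ± 87.9 TPM. The only one lower was Slc39a14, a zinc and iron importer (-0.40 ± 0.07, adjusted p = 0.0011). Fgg and A2m, the latter the protease trap alpha-2-macroglobulin, were also higher but had only 1.08 and 1.16 TPM in A2iL. Both had higher levels in 2iL, at 13.2 and 4.27 TPM, where the 7 members were at or near 0. The list's median difference was 1.06 beside -0.07 over all lines.

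Against 2iL-F, A2iL was higher for 5 of the 8 acute-phase proteins and lower for 1, where 45.3% of lines passed. Without Hp, which passed the low-value filter only through A2iL, 4 of 7 were higher and 1 lower. Cp differed by 1.85 ± 0.10 (adjusted p = 2.6e-06). The gene that was lower was A2m, with 1.16 ± 0.147 TPM in A2iL and 6.24 ± 0.00442 in 2iL-F. In 2iL-F, 6 of the 8 were higher than in SL (5 of 7 without Hp) and 2 lower, where 65.4% of lines passed. In LCDM 2 were higher and 4 lower, where 65.9% passed, and in 2iL 4 were higher and 3 lower, where 77.7% passed.

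The other chemokine ligands went in both directions between A2iL and SL. Of 17 tested, of 34 listed, 6 were higher and 6 lower, a share of 70.6% beside 53.8% of all lines. Among the 12 that passed the low-value filter without help from a single condition, 4 were higher and 5 lower. On chromosome 11 of mm10, Ccl2 (82035571 to 82037453) stands in a cluster with Ccl7, Ccl11, Ccl12 and Ccl8, with gaps of 8.3, 10.3, 38.9 and 11.8 kb between neighbours in that order. All 4 of these neighbours had higher levels in A2iL than in SL, but Ccl11 and Ccl12 passed the low-value filter only through A2iL, so their levels are given without a test. Ccl7, a monocyte chemokine, had 313 ± 11.4 TPM in A2iL, 157 ± 6.15 in SL, 86.2 ± 7.09 in 2iL-F and 27.5 ± 1.07 in LCDM, and was listed at 0 in 2iL, the same order of conditions as Ccl2. Ccl11, an eosinophil chemokine, had 7.17 ± 1.08 TPM in A2iL and 0.560 ± 0.465 in SL, and Ccl12 had 5.11 ± 0.948 and 0.358 ± 0.506 TPM. Ccl8 had 18.2 ± 0.693 TPM in A2iL and 13.9 ± 1.61 in 2iL-F against 0.460 ± 0.385 in SL (3.74 ± 0.20 and 3.37 ± 0.20). Unlike Ccl7 (1.85 ± 0.07), Ccl8 did not pass between A2iL and 2iL-F (0.37 ± 0.20, adjusted p = 0.18).

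Cxcl1 (chromosome 5, 90891241 to 90893115) has Cxcl5, another neutrophil chemokine, 129.6 kb away, with Ppbp, Pf4, Cxcl3 and Cxcl15 between them. Cxcl5 had 57.6 ± 1.68 TPM in A2iL, 24.6 ± 1.44 in 2iL-F, 12.9 ± 1.01 in SL and 1.32 ± 0.0154 in LCDM, again with 0 in 2iL. It rose by 2.07 ± 0.07 in A2iL over SL (adjusted p = 1.8e-07), in the order of conditions seen for Cxcl1. Among the ligands that fell in A2iL were Cxcl14, which is made by epithelium and stroma, from 45.5 ± 1.18 to 8.53 ± 0.806 TPM (-2.29 ± 0.08), and the interferon-induced Cxcl10 (-1.32 ± 0.12). Ppbp, a platelet chemokine, had 5.75 ± 0.342 TPM in SL and 0.0843 ± 0.119 in A2iL and passed the low-value filter only through SL. Pf4, also of platelets, differed by -0.02 ± 0.12 (adjusted p = 0.90), and Cxcl3 and Cxcl15 were below 1 TPM in every library. The median difference of the list between A2iL and SL was 0.

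Against SL, the same 17 ligands were mostly lower in the other conditions. In 2iL, 15 were lower and 1 higher, where 77.7% of lines passed in either direction. The exception was Ccl25, a chemokine of thymus and gut, with 5.13 ± 0.250 TPM in 2iL and 1.16 ± 0.182 in SL. In LCDM, 14 were lower and 0 higher by limma, where 65.9% of lines passed. In 2iL-F, 10 were lower and 4 higher, where 65.4% passed. Ccl4, Ccl9 and Ppbp passed the low-value filter only through SL, so the filter favoured lower levels of them elsewhere. Among the 12 ligands that needed no single condition to pass, 11 were lower and 1 higher in 2iL. For these 12, the counts were 10 lower and 0 higher in LCDM and 7 lower and 4 higher in 2iL-F. Between A2iL and 2iL-F, 12 of the 17 were higher in A2iL and 3 lower, where 45.3% of lines passed. Without genes that passed the low-value filter through 1 condition alone, 8 of 12 were higher and 3 lower. Among those higher in A2iL were Ccl5, which attracts T cells, at 7.13 ± 0.545 against 0.733 ± 0.378 TPM (2.25 ± 0.15, adjusted p = 6.4e-06), and Cxcl16 (1.75 ± 0.15).

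**Figure D4:**
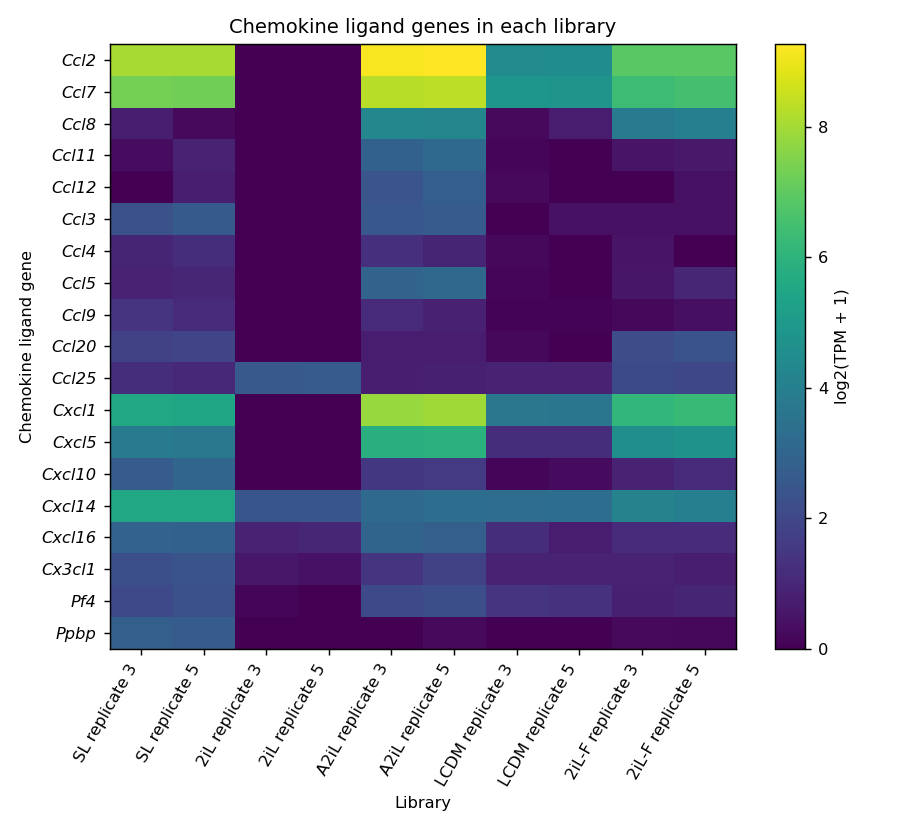
Log2(TPM + 1) of chemokine ligand genes (rows) in each of the 10 libraries (columns), with the colour bar giving the scale. Ccl2, Ccl7, Cxcl1 and Cxcl5 are brightest in A2iL, most ligands are dark in both 2iL libraries, and Cxcl14 and Ppbp are brightest in SL.

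Few receptors of these ligands could be named, 6 of 25 listed. Cxcr2, the receptor of Cxcl1 and Cxcl5, was listed at 0 in SL, 2iL and A2iL and at a mean of 0.0160 TPM in LCDM and 0.0143 in 2iL-F, and Ccr2 was not analysed here. Slc22a17, described as a receptor of lipocalin 2, had 5.18 ± 0.0289 TPM in A2iL and 5.54 ± 0.130 in SL (-0.08 ± 0.10, adjusted p = 0.52). Lrp2, the endocytic receptor megalin, which also takes up lipocalin 2, had 14.05 ± 0.128 TPM in SL and between 0.428 and 0.905 in the means of the other 4 conditions, and it passed the low-value filter only through SL. Only these 2 genes of the receptor list were tested.

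Mmp9, a matrix protease that lipocalin 2 binds and stabilises, had 80.4 ± 1.42 TPM in A2iL, 14.2 ± 0.737 in SL, 1.83 ± 0.337 in LCDM, 0.451 ± 0.308 in 2iL and 0.387 ± 0.0466 in 2iL-F. It was 2.42 ± 0.14 higher in A2iL than in SL (adjusted p = 2.7e-06) and 5.88 ± 0.14 higher than in 2iL-F (adjusted p = 2.8e-08). Its level in 2iL-F lay near that in 2iL (-0.05 ± 0.14, adjusted p = 0.78), whereas all 7 members were higher in 2iL-F.

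The other STEAP metalloreductases did not follow Steap4. Steap1 had 18.5 ± 1.70 TPM in A2iL against 30.1 ± 2.58 in SL (-0.67 ± 0.19, adjusted p = 0.016), and Steap2 also fell (-0.39 ± 0.07, adjusted p = 0.0014). Steap3 differed by -0.06 ± 0.07 (adjusted p = 0.49). Trf, the iron carrier transferrin, rose from 2.60 ± 0.152 to 5.52 ± 0.0582 TPM (0.86 ± 0.10). Over the 9 tested genes of iron handling and the STEAP family, 2 were higher and 4 lower in A2iL than in SL. That share of 66.7% stood beside 53.8% of all lines.

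Among the other complement genes, 5 of 11 were higher and 2 lower in A2iL than in SL, a share of 63.6% beside 53.8% of all lines. Against 2iL-F, 2 were higher in A2iL and 6 lower, a share of 72.7% beside 45.3% of all lines. Serping1, which inhibits the first complement protease, had 6.82 ± 0.862 TPM in A2iL, 2.27 ± 0.179 in SL, 16.8 ± 1.65 in 2iL-F and 15.8 ± 1.60 in 2iL. It did not have the low 2iL level of C3. Clu, clusterin, fell from 13.7 ± 0.870 TPM in SL to 3.67 ± 0.186 in A2iL (-1.65 ± 0.09). Cfp, properdin, which stabilises the C3 convertase, was highest in 2iL-F, at 27.5 ± 0.736 TPM, and 2.25 ± 0.14 lower in A2iL. C3ar1 and Cfb were not analysed here.

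NF-kB genes were higher in A2iL than in SL for 9 of 27 and lower for 5, a share of 51.9% that lay near the 53.8% of all lines. Those with the largest rise included the feedback inhibitors Tnfaip3, from 8.03 ± 0.103 to 24.1 ± 1.14 TPM (1.48 ± 0.08, adjusted p = 1.2e-06), and Nfkbia, from 83.6 ± 0.278 to 196 ± 1.18 TPM (1.22 ± 0.09, adjusted p = 8.0e-06). Tnip1 (1.25 ± 0.06) and Sod2 (1.09 ± 0.05) rose as well. In 2iL, Tnfaip3 and Nfkbia were low, at 0.382 and 31.8 TPM. Tnip1 had 69.9 TPM in 2iL and 53.3 in A2iL, and Sod2 had 107.5 and 103.2. Ptgs2, cyclooxygenase 2, had 117 ± 1.64 TPM in A2iL, 113 ± 2.97 in SL and 15.5 ± 1.36 in 2iL-F, so it differed between A2iL and 2iL-F (2.84 ± 0.07, adjusted p = 3.1e-08) and not detectably between A2iL and SL (0.05 ± 0.07, adjusted p = 0.60). The list's median difference was -0.05 in A2iL against SL. Against 2iL-F, 13 of the 27 were higher in A2iL and 2 lower, a share of 55.6% beside 45.3% of all lines. In each of 2iL, LCDM and 2iL-F, 5 of the 27 were higher than in SL, while 18, 19 and 14 were lower. The shares of all lines that were lower in these comparisons were 40.9%, 33.7% and 37.3%.

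Of 25 genes of IL-1, IL-6, IL-17 and TNF signalling, 11 were higher and 6 lower in A2iL than in SL. That share of 68% stood beside 53.8% of all lines. Both chains of the IL-1 receptor rose, Il1r1 from 3.67 ± 0.0446 to 9.11 ± 0.356 TPM (1.11 ± 0.08, adjusted p = 8.9e-06) and Il1rap from 2.82 ± 0.00828 to 7.77 ± 0.199 (1.20 ± 0.10, adjusted p = 2.0e-05). Il6 had 9.39 ± 0.0267 TPM in A2iL, 6.31 ± 0.591 in 2iL-F, 5.07 ± 0.117 in SL, 0.371 ± 0.268 in LCDM and 0.0180 ± 0.0255 in 2iL. Lif, the cytokine also added to the medium, had 43.0 ± 2.14 TPM in A2iL, 31.7 ± 0.606 in SL and 5.50 to 6.78 in the means of the other 3. Il11, a cytokine of the IL-6 family, fell in A2iL (-2.17 ± 0.16), as did Il1rl1, the receptor of IL-33 (-1.48 ± 0.11). Osmr, the receptor of oncostatin M, was 7.45 ± 0.222 TPM in A2iL and 7.14 ± 0.291 in SL (adjusted p = 0.55).

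Among 14 genes of STAT3 and C/EBP, 3 were higher and 5 lower in A2iL than in SL, a share of 57.1% that lay near the 53.8% of all lines. Pim1, a kinase gene induced by STAT3, had 136 ± 4.95 TPM in A2iL and 262 ± 0.558 in SL (-0.94 ± 0.06, adjusted p = 5.6e-06), and it was highest in 2iL, at 535 ± 2.08 TPM, where the 7 genes were at or near 0. Fosl2, an AP-1 subunit, also fell in A2iL (-0.59 ± 0.08). The 3 that were higher in A2iL than in SL were Pim3 (0.55 ± 0.07), Ddit3 (0.40 ± 0.09) and Stat3 itself (0.26 ± 0.05).

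Over the union of the 9 pathway lists, without the 7 members, 117 of 270 listed genes were tested, of which 8 passed the low-value filter only through SL, 3 only through A2iL and 1 only through 2iL-F. In A2iL against SL, 44 were higher and 32 lower, a share of 65% beside 53.8% of all lines, with a median difference of 0.03 beside -0.07. Among the 105 genes that needed no single condition to pass, 40 were higher and 27 lower. When the 4 libraries with the labels 2iL and 2iL-F were left out of the fit, 43 were higher and 32 lower. In 2iL against SL, 30 of the 117 were higher and 75 lower (median -0.71), where 77.7% of lines passed. In LCDM these were 22 and 73 (median -0.53), beside 65.9% of lines, and in 2iL-F 40 and 58 (median -0.20), beside 65.4%. Among the 105, the counts were 29 and 66 in 2iL, 22 and 64 in LCDM and 38 and 50 in 2iL-F. Between 2iL-F and 2iL, where 61.7% of lines passed in either direction, 59 were higher in 2iL-F and 23 lower (56 and 22 of the 105). Between A2iL and 2iL-F, where 45.3% passed, 54 were higher in A2iL and 26 lower (47 and 25 of the 105). The medians over all lines in these comparisons lay between -0.08 and 0.01.

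**Figure D5:**
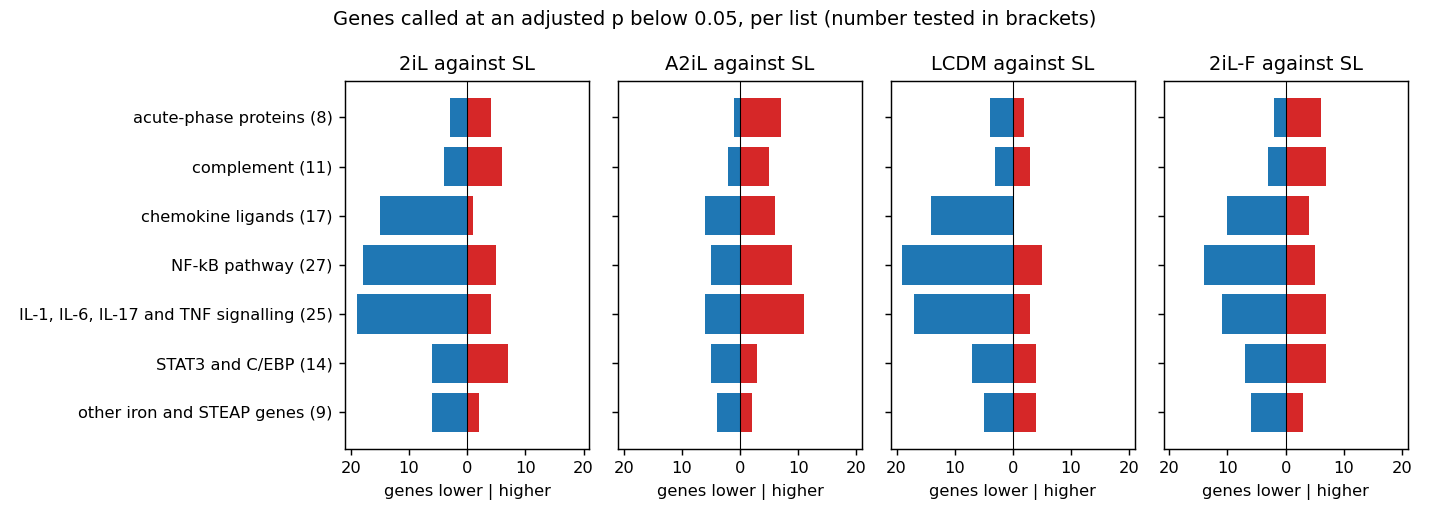
Number of genes per list with an adjusted p below 0.05 (limma) that were lower (bars to the left) or higher (bars to the right) than in SL, for 2iL, A2iL, LCDM and 2iL-F, with the number tested in brackets and the 7 members left out. Acute-phase proteins in A2iL show 7 genes higher and 1 lower (6 and 1 without Hp). Chemokine ligands have 6 each way in A2iL and 14 lower in LCDM. Of all lines, 53.8% passed in either direction in A2iL against SL and 65.9% in LCDM against SL. Bars include genes that passed the low-value filter only through 1 condition. Without these, the ligands have 4 higher and 5 lower in A2iL and 10 lower in LCDM.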

How the data were processed

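RNA-seq was done on 10 libraries, 2 in each of 5 culture conditions. Per the labels' protocols, libraries were made with a NEBNext Ultra kit from RNA purified with a Qiagen kit. The deposited table holds TPM in 20494 lines. The submitters' processing notes name mm10, Bowtie2, RSEM, DESeq2 and R 3.4.2, and other versions are not given in these sources. TPM keep no read number, so depth and counting error are unknown, and no intervals are given. Per library, the values in the table add up to 71.0% to 72.96% of the total to which TPM are scaled.

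Genes are named only in the first 9865 lines. There 98.2% of 169 members of broadly expressed families and 3.7% of 27 members of restricted families had at least 5 TPM, against 47.5% of 99 and 35.5% of 251 in the lower lines, where symbols and values are offset. The 7 members and the gene lists were chosen with earlier results of these data known.

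Log2(TPM + 1) was fitted with limma 3.58.1 in R 4.3.3 (eBayes with trend, a mean per condition, all 10 libraries, 5 residual degrees of freedom). Lines with 1 TPM or more in at least 2 libraries were tested, which kept 14578 lines, 7962 of them nameable. In each of 6 comparisons the two-sided p was adjusted over all tested lines (Benjamini-Hochberg), with a threshold of 0.05. For each list and comparison, up to 4 genes that passed with the largest differences and at least 5 TPM were eligible to be named, and receptors, ligands and inhibitors of the members always were. Counts without list genes that passed the filter through 1 condition alone were added after seeing the data. Ccl25, Pf4, Cxcl3, Cxcl15, Adgre1, Tyrobp, Stat3, Alb and Ptprc were named after their values were seen. For each member, the 5 genes with the highest Pearson r were found, and for C3, Ccl2 and Cxcl1 only the nearest of these are named. The fit was tested on simulated data. The alternatives tried were median-of-ratios or quantile scaling, a replicate block, a pseudocount of 0.1, a filter of 5 TPM or none, only the libraries compared, each library left out, both 2iL and 2iL-F left out, and the fibroblast list sum in place of Col1a1. Added after seeing the data were the fit without 2iL alone and Col3a1 or Dcn in place of Col1a1. Positions are those of GENCODE vM21 and promoters those of RefSeq for GRCm38.p6. Python 3.11.15, numpy 2.4.6, pandas 2.3.3 and matplotlib 3.10.9 were used.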

Additional observations from a re-analysis of the deposited data

How the results depend on the processing

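Each of the 6 counts of all lines and the 6 counts of pathway genes stayed within 1.5 times its value under every alternative run, as did the counts of members with a higher share of a fibroblast reference in A2iL, with 1 exception among 161 alternatives. With Dcn in place of Col1a1, the number of members with a higher share in A2iL than in SL was 4 in place of 7, since Dcn itself was 16.4 times higher in A2iL. Median-of-ratios scaling moved the split over all lines in A2iL against SL from 3196 higher and 4648 lower to 3995 higher and 3777 lower, and the pathway genes from 44 and 32 to 48 and 30. It moved no median over all lines by more than 0.1.

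The 42 member differences kept their sign in 477 alternatives, and 63 of these moved by more than the spread between libraries, 32 of them with a pseudocount of 0.1 and 14 with quantile normalisation. C3 in LCDM against SL, at -0.19, was -0.07 without LCDM replicate 3 and -0.31 without LCDM replicate 5. Deviations of same-numbered libraries correlated at only -0.131 to 0.075 over 10 pairs of conditions, so no clear shared deviation was seen. The labels do not explain the replicate numbers, so whether the libraries were handled in pairs is unknown. With the replicate block, 7618 lines passed in A2iL against SL in place of 7844, and 75 pathway genes in place of 76. Values below 1 TPM, such as those of Lcn2 outside A2iL, cannot be given an error from counting, as the depth is unknown.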
